A study of Homo sapiens with 6 samples.

Results

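The BCL2 family decides whether the outer membrane of mitochondria stays closed or opens and the cell dies, and the BNIP3 proteins, which resemble the family in part, mark mitochondria for removal. A list of 10 such genes was taken, namely the pro-survival genes BCL2L1 and MCL1, the pore-forming effectors BAX and BAK1, the BH3-only genes BAD, BID, BBC3 and BCL2L11, and the mitophagy receptors BNIP3 and BNIP3L. By gene name, 6 of the 10 had a row among the 10542 genes of the deposited table: MCL1, BAX, BAK1, BBC3, BNIP3 and BNIP3L. BAD, BID, BCL2L1 and BCL2L11 were not analysed here. Expression was compared between 3 libraries of DU145-TFEB cells and 3 of DU145-vector cells. DU145 is an established prostate cancer cell line, and TFEB is a transcription factor that drives lysosome and autophagy genes. DU145-TFEB cells had received a lentivirus that carries TFEB, and DU145-vector cells the blank lentivirus. Both were stable lines kept after puromycin selection. Whether each was 1 clone or a pool of clones, and whether the libraries came from separate cultures, is not given in the sources used here, so the p-values measure only the spread between these libraries.

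Anti-apoptotic members such as MCL1 hold the effectors BAX and BAK1 in check. BH3-only proteins such as BBC3, also called PUMA, free or activate the effectors, which then form pores in the outer mitochondrial membrane and release cytochrome c. BNIP3 and BNIP3L, the latter also called NIX, sit in the same membrane and bind LC3-type proteins of the autophagosome, so that a damaged or surplus mitochondrion is engulfed. DU145 cells are known to lack BAX protein because of a frameshift in the gene, which read counts per gene do not show. Such counts also do not separate the long and short splice forms of MCL1, which act in opposite ways.

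The table lists only genes with a deposited adjusted p-value below 0.05 in this same contrast, so every gene in it already differed between these libraries, and a further p-value is not independent evidence. Reads on the listed genes ran from 13999961 to 16511477 per library. The mean normalized count of TFEB itself was 6221 ± 160.5 with the TFEB lentivirus and 125 ± 1.82 with the blank one (SD, n = 3 each), a 49.6-fold difference. Of 5 epithelial markers, KRT8, KRT18 and KRT19 were analysed, with normalized counts of at least 1451 in every library and lower means in DU145-TFEB, and their log2 fold changes lay between -0.78 and -0.38. Of the 5 fibroblast and 5 leukocyte markers none was analysed. Since the table lists only genes that differed, this gives no level for the others.

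TFEB binds the E-box CACGTG, the core of the CLEAR element found before many lysosomal genes, and the promoters of the analysed genes were searched for it to give the sequence context of the values below. RefSeq sequences (GRCh38.p14) of the 250 bases before the transcription start were used for BAX, BAK1, BBC3 and BNIP3, 4 of the 6 genes, and those of MCL1 and BNIP3L were not used here. CACGTG is its own reverse complement, so both strands are covered. It was found in the promoters of BAX, BBC3 and BNIP3, which are shown 5′ to 3′ on the strand of the gene with each CACGTG in capitals.
BAX, chr19:48954625-48954874, plus strand: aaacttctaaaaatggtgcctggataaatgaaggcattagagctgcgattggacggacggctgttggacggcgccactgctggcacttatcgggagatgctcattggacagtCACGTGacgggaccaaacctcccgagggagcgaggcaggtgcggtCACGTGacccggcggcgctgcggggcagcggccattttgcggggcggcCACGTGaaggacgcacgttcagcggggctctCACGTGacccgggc
BBC3, chr19:47232668-47232917, minus strand: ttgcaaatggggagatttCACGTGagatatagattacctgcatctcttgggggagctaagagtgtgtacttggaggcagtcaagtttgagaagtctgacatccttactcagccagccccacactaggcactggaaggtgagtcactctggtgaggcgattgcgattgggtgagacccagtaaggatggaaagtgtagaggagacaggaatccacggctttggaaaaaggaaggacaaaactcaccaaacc
BNIP3, chr10:131981924-131982173, minus strand: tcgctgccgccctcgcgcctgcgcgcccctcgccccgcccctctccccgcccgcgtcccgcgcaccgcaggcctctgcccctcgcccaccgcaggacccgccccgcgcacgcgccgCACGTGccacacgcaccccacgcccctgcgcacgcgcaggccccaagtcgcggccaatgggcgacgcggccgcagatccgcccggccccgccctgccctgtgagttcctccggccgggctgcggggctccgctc
The BAX promoter held 4 copies, starting 138, 93, 45 and 14 bases before the transcription start. The promoters of BBC3 and BNIP3 held 1 copy each, starting 232 and 134 bases before it. The RefSeq starts used for BAX, BAK1, BBC3 and BNIP3 lie inside the gene spans given below. The BAX copies starting 45 and 14 bases before the start used therefore also lie inside the BAX span. The longer palindrome TCACGTGA, searched after these sequences had been seen, was made by 3 of the copies in BAX and by the copy in BBC3, and not by the copy in BNIP3. The BAK1 promoter, chr6:33580277-33580526 on the minus strand, held neither CACGTG nor the shorter ACGTG on either strand. Of all 35116 promoters of this length, 6.34% held CACGTG, 18.5% held ACGTG on either strand (any CACGTG included) and 0.854% held TCACGTGA. Of the 11157 promoters of listed genes, these shares were 8.18%, 21.9% and 1.54%. At least 4 copies of CACGTG were present in 5 of all promoters and in 3 of those of listed genes, BAX among these. A match in these letters is a description of the sequence and not a measured binding site.

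MCL1 was the only pro-survival gene of the list that could be analysed, and it was lower in DU145-TFEB. MCL1 (ENSG00000143384) spans positions 150574551 to 150579738 of chromosome 1 (GRCh38, minus strand). Its normalized counts were 5238, 5811 and 5519 in DU145-TFEB and 9202, 8739.7 and 10124 in DU145-vector. The highest DU145-TFEB library lay well below the lowest DU145-vector library. The means were 5523 ± 286 and 9355 ± 705 (SD, n = 3 each), and the log2 fold change, here and throughout on the scale of log2(normalized count + 1), was -0.76 with a standard error of 0.076 (adjusted p = 1.68e-05, limma). It was -0.46 once the trend against transcript GC content and gene length had been removed from each library (adjusted p = 6.56e-04, limma). In bulk RNA, fewer cells that express a gene and less RNA of it per cell cannot be told apart.

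Both effector genes were higher in DU145-TFEB with the scaling of the authors, and both were lower with that trend removed. BAX (ENSG00000087088), at 48954815 to 48961798 of chromosome 19 (plus strand), gave normalized counts of 899, 974 and 858 in DU145-TFEB and of 557, 587 and 576 in DU145-vector. No library of one group reached into the range of the other. The means were 910.0 ± 58.8 and 573 ± 15.4 (SD, n = 3 each), a 1.59-fold difference. On the log2 scale it was 0.66 with a standard error of 0.086 (adjusted p = 7.30e-05, limma). Its value was -0.32 after the removal of the trend (adjusted p = 0.00697, limma). The median of all listed genes was -0.26 after this step, and relative to it BAX was at -0.06, close to the typical listed gene.

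BAK1 (ENSG00000030110) lies at 33572547 to 33580293 of chromosome 6 (minus strand). It had normalized counts of 1760.4, 2070.1 and 1636 in DU145-TFEB and of 1383, 1351 and 1478 in DU145-vector. DU145-TFEB replicate 2 was the highest, and the other DU145-TFEB libraries stood closer to the vector range. The log2 fold change was 0.37 with a standard error of 0.096 (adjusted p = 0.00444, limma), and without DU145-TFEB replicate 2 it was 0.27. It turned to -0.56 with the trend removed (adjusted p = 6.46e-05, limma), or to -0.30 relative to the median of all listed genes after this step.

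BBC3 was the BH3-only gene of the list that could be analysed, and it was higher in DU145-TFEB with the scaling of the authors. BBC3 (ENSG00000105327), at 47220822 to 47232766 of chromosome 19 (minus strand), gave normalized counts of 159.9, 157 and 168 in DU145-TFEB and of 99.0, 78.0 and 110 in DU145-vector. The DU145-TFEB libraries were close together and all above the more scattered vector libraries. The log2 fold change was 0.77 with a standard error of 0.16 (adjusted p = 0.00143, limma), from 162 ± 5.65 against 95.7 ± 16.2 (SD, n = 3 each). It was the lowest in abundance of the 6 genes, with at least 80 reads in every library, and had the largest standard error. After the trend was removed, the value was -0.31 and did not pass the threshold (adjusted p = 0.0973, limma). Relative to the median of all listed genes after this step it was -0.05.

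**Figure D1:**
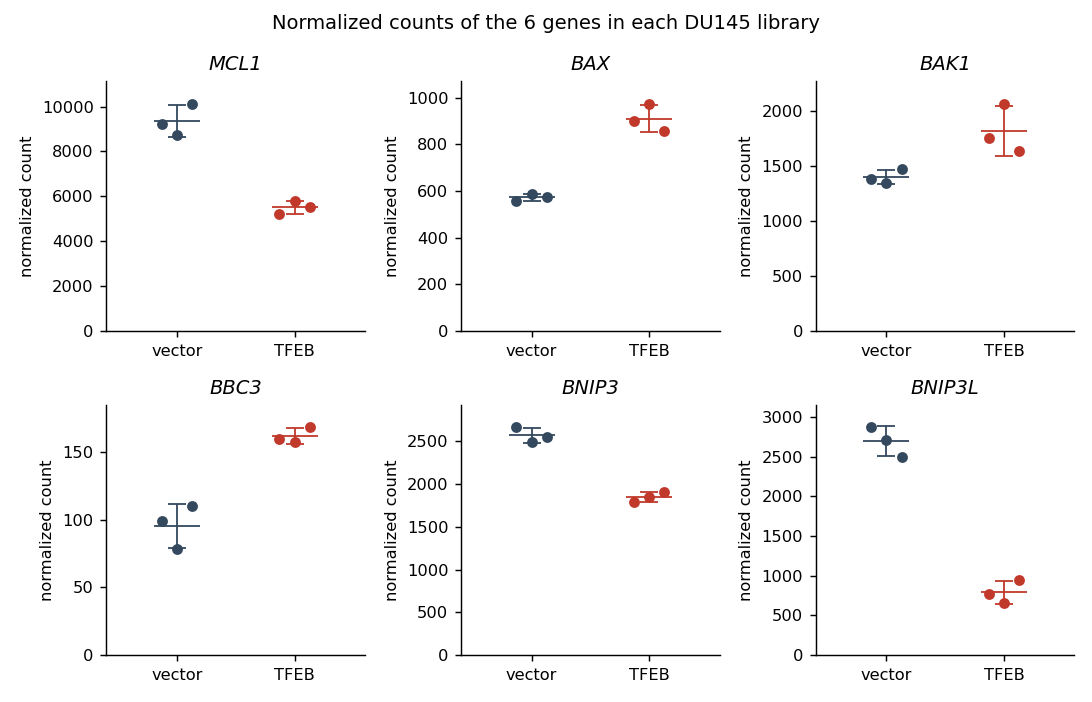
Normalized counts (vertical axes, starting at 0 and scaled for each gene) of MCL1, BAX, BAK1, BBC3, BNIP3 and BNIP3L in the 3 DU145-vector libraries (dark blue) and the 3 DU145-TFEB libraries (red). Points are libraries, long bars are means and error bars are SD. In each panel the libraries of the groups do not overlap, and relative to its level BNIP3L shows the widest gap, from 2490 or more in DU145-vector to 943 or less in DU145-TFEB.

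Both mitophagy receptors were lower in DU145-TFEB, and with the scaling of the authors BNIP3L was lower by more than BNIP3. BNIP3L (ENSG00000104765) lies at 26382898 to 26505636 of chromosome 8 (plus strand). Its normalized counts were 764, 659.7 and 943 in DU145-TFEB and 2866, 2712 and 2490 in DU145-vector. Even the highest DU145-TFEB library had less than the lowest vector library by a wide margin. The means of 789 ± 143 and 2689 ± 189 (SD, n = 3 each) gave a level 3.41-fold higher in DU145-vector. The log2 fold change was -1.78 with a standard error of 0.12 (adjusted p = 3.98e-06, limma), and 90.5% of all listed genes had a higher one. Removing the trend left -1.19 (adjusted p = 3.35e-05, limma), short of the cutoff of 1.5 that the study used, and -0.94 when the GC content of the longest transcript was used instead.

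BNIP3 (ENSG00000176171), at 131966455 to 131982013 of chromosome 10 (minus strand), gave normalized counts of 1792, 1854 and 1905 in DU145-TFEB and of 2664, 2498 and 2553 in DU145-vector. These libraries were tightly grouped, with means of 1850.3 ± 56.8 and 2572 ± 84.8 (SD, n = 3 each). The log2 fold change was -0.47 with a standard error of 0.067 (adjusted p = 1.28e-04, limma), and -0.73 after the trend was removed (adjusted p = 2.77e-05, limma). With the GC content of the longest transcript it was -0.86, close to the -0.94 of BNIP3L. Of the 3 lower genes, MCL1 and BNIP3L moved closer to 0 with this step and BNIP3 moved away from it.

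Counting by strand is not given in the sources used here, so overlapping genes are a limit. GGNBP1, a pseudogene on the other strand, overlaps BAK1 by 7747 bases, its whole span, and was not analysed here. An antisense gene inside BNIP3, AL162274.1, had at most 13.5 normalized counts in the DU145-TFEB libraries and at least 31 in the DU145-vector libraries, far fewer than BNIP3. BNIP3L overlaps PNMA2 on the other strand by 951 bases. The normalized counts of PNMA2 were 1372 to 1548 in DU145-TFEB and 2382 to 2624 in DU145-vector. The annotation also holds 39 pseudogenes named after BNIP3 and 2 named after BAK1, none of them listed in the table, and reads could have been shared with these copies.

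Calls were made at the cutoffs that the methods of the study give, an adjusted p (limma) under 0.05 together with a log2 fold change beyond 1.5 in either direction. Of the 6 genes 1 was called lower, BNIP3L, and 0 were called higher. Over all listed genes 16.5% were called lower and 2.54% higher, which is 1741 and 268 genes. That split was 1105 and 466 with size factors estimated again, 808 and 563 with quantile normalization and 390 and 156 with the trend removed. Without the fold-change cutoff all 6 passed the adjusted p-value, 3 higher and 3 lower, where 47.6% of the listed genes passed as higher and 52.4% as lower. The groups did not overlap for any of the 6 genes, as for 99.3% of all listed genes. An exact permutation test (two-sided) gave 0.1 for each, which is the lowest p that 3 libraries against 3 allow. Since the table was selected on this same contrast, nothing is read from these shares about the 6 genes.

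Over the listed genes the middle of the fold changes moved with the scaling. The median was -0.36 with the scaling of the authors, -0.12 once size factors were estimated again and -0.03 after quantile normalization. Relative to the median under the scaling of the authors, the log2 fold changes were 1.12 for BBC3, 1.02 for BAX and 0.73 for BAK1, and -0.12 for BNIP3, -0.40 for MCL1 and -1.43 for BNIP3L. BNIP3 was therefore close to the typical listed gene. The direction of each of the 6 genes was the same with these 3 scalings, with scaling to the total or the upper quartile, and with DESeq2 and edgeR on the recovered reads.

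**Figure D2:**
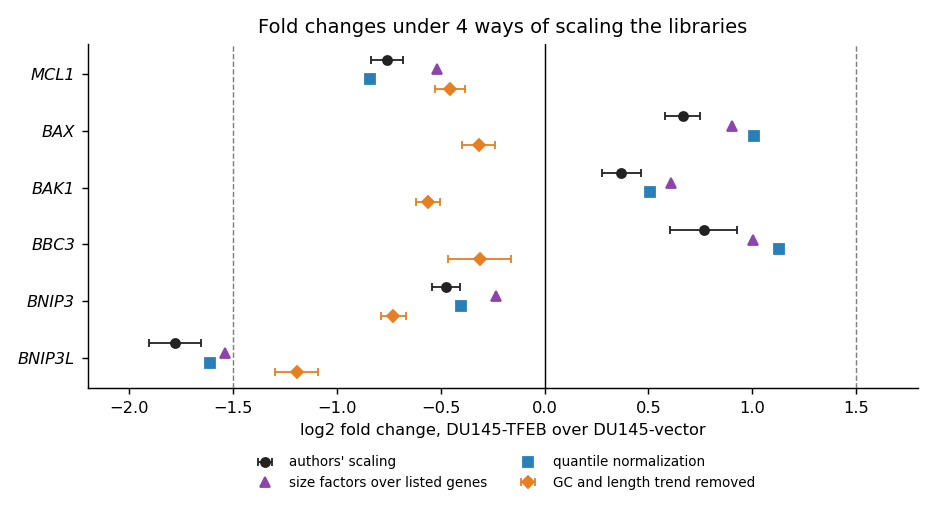
Log2 fold change of DU145-TFEB over DU145-vector (horizontal axis) for the 6 genes with the scaling of the authors (black circles), size factors estimated again (purple triangles), quantile normalization (blue squares) and the trend against GC content and length removed (orange diamonds). Error bars are standard errors, given for the scaling of the authors and the removed trend. Dashed lines mark the cutoff of 1.5 in each direction. BAX, BAK1 and BBC3 lie right of 0 under the other settings and left of 0 with the trend removed, at -0.32, -0.56 and -0.31. The median of all listed genes with the trend removed was -0.26.

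The transcripts of the higher genes had more G and C than those of the lower genes. GC content over all annotated transcripts was 64.5% for BBC3, 60.4% for BAX and 58.7% for BAK1, against 50.9% for BNIP3, 45.7% for MCL1 and 43.1% for BNIP3L. The listed genes within 1 percentage point of GC content give a local comparison. For BAX their median log2 fold change was 0.63 (659 genes), next to 0.66 for BAX itself. For BBC3 it was 0.68 (385 genes) next to 0.77, and for MCL1 -0.81 (797 genes) next to -0.76. These genes sat near the middle of the genes of like composition, with 54.0%, 62.6% and 53.5% of them at a lower log2 fold change. BAK1, BNIP3 and BNIP3L lay below most such genes. Their log2 fold changes of 0.37, -0.47 and -1.78 stood beside medians of 0.61, 0.38 and -1.06, and only 14.5%, 22.2% and 14.0% of the genes of like composition were lower. With the trend removed, the median of the listed genes was -0.26, and relative to it the log2 fold changes were -0.05 for BBC3, -0.06 for BAX, -0.20 for MCL1, -0.30 for BAK1, -0.47 for BNIP3 and -0.93 for BNIP3L. The part of transcript composition in the differences between the groups was not tested.

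**Figure D3:**
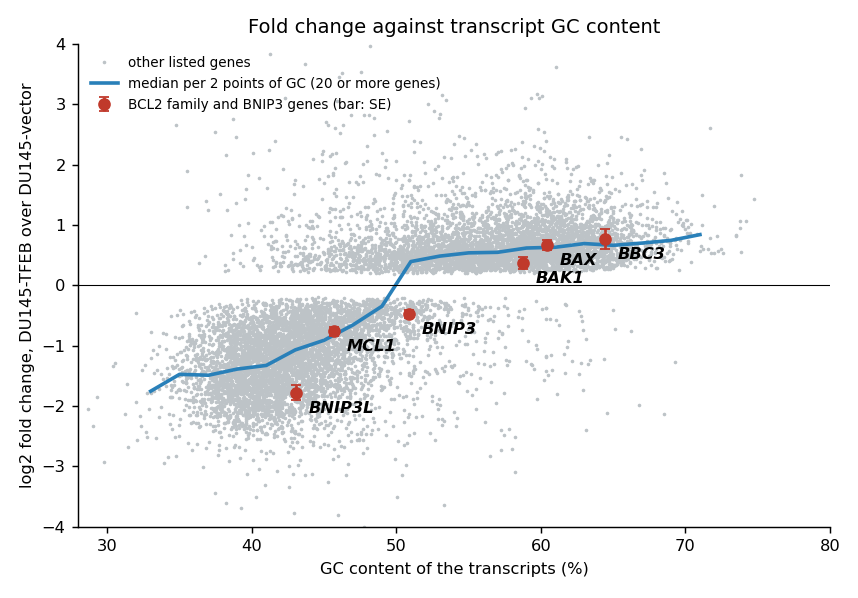
Log2 fold change of DU145-TFEB over DU145-vector (vertical axis) against the GC content of the transcripts in percent (horizontal axis). Grey points are listed genes, of which 5 lie outside the plotted range of 4 in either direction. The blue line is the median per 2 percentage points where at least 20 genes fall, and red points with standard error bars are the 6 genes. MCL1, BAX and BBC3 lie near the line, and BNIP3L at -1.78 lies below its local median of -1.06.

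Levels of different genes were compared per kilobase of gene length, as normalized count per kilobase. In DU145-vector the order from high to low was MCL1 (2140 ± 161), BAK1 (635 ± 29.9), BNIP3L (624 ± 43.9), BNIP3 (483 ± 15.9), BAX (222 ± 5.94) and BBC3 (30.1 ± 5.11, SD, n = 3 each). BAK1 and BNIP3L overlapped between libraries, and the other neighbours did not. In DU145-TFEB the order was MCL1 (1263 ± 65.5), BAK1 (824 ± 101), BAX (352 ± 22.7), BNIP3 (347 ± 10.7), BNIP3L (183 ± 33.2) and BBC3 (50.9 ± 1.78, SD, n = 3 each). There BAX and BNIP3 overlapped, and the other neighbours did not. MCL1 stayed the most abundant and BBC3 the least, while BNIP3L went from the level of BAK1 to below BAX.

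The effector, BH3-only and BNIP3 genes were then set against MCL1 within each library, since a ratio of 2 genes in 1 library does not depend on its size factor. The log2 ratio of BAX to MCL1 was -2.54, -2.58 and -2.68 in DU145-TFEB and -4.04, -3.89 and -4.13 in DU145-vector. The ratio was thus higher by 1.42 on the log2 scale, or 2.68-fold. The ratio of BBC3 to MCL1 was higher by 1.52, or 2.88-fold, and that of BAK1 to MCL1 by 1.13, or 2.19-fold. For BNIP3 the difference was 0.28, or 1.22-fold, as both genes were lower. BNIP3L moved the other way, by -1.02. None of these ratios overlapped between the groups. An exact permutation test (two-sided) gave p = 0.1 for each and 0.1 after adjustment over the 5 ratios, the lowest that this design allows. For BAX, BAK1 and BBC3 this outcome was fixed in advance. Each of them was higher and MCL1 lower without overlap, in a table selected on this same contrast. Nothing is therefore read from the separation or from these p-values. With the trend against GC content and length removed, the differences were 0.14 for BAX, 0.14 for BBC3, -0.10 for BAK1, -0.27 for BNIP3 and -0.74 for BNIP3L, so that BAK1 and BNIP3 changed sign.

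**Figure D4:**
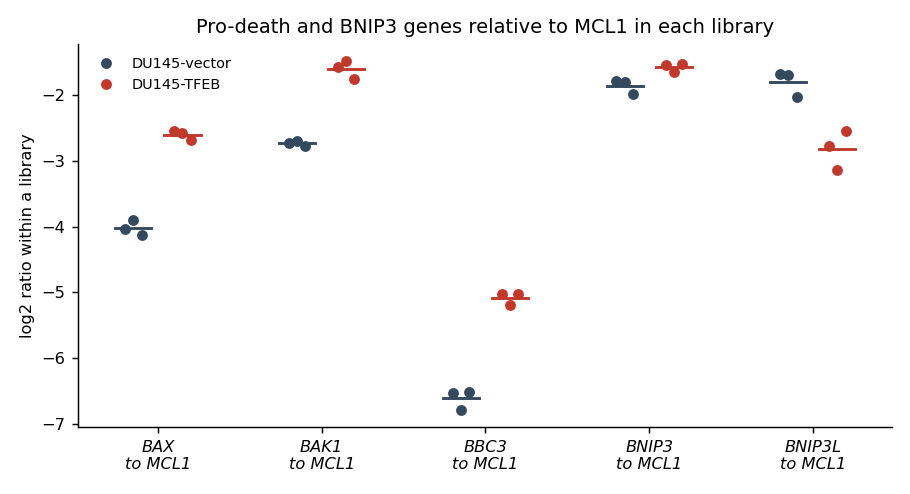
Log2 ratio of the normalized count + 1 of BAX, BAK1, BBC3, BNIP3 and BNIP3L to that of MCL1 within each library (vertical axis). Points are libraries of DU145-vector (dark blue) and DU145-TFEB (red), and bars are means of 3 libraries. The ratio lies higher in all DU145-TFEB libraries for BAX, BAK1, BBC3 and BNIP3, and lower for BNIP3L.

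Other genes of the BCL2 family were also taken. Of a list of 16, 8 were analysed, and 5 of them were higher and 3 lower by the adjusted p alone, where 47.6% and 52.4% of all listed genes were. Their median was 0.34, against -0.36 over all listed genes. With the trend removed it was -0.43 against -0.26, with 2 higher and 6 lower, beside 3288 and 7249 of all listed genes. BMF, a BH3-only gene linked to the cytoskeleton, had normalized counts of 576, 377 and 580.4 in DU145-TFEB and of 197, 140.4 and 157 in DU145-vector. DU145-TFEB replicate 2 was the lowest of its group and still stood above every vector library. BMF was the 1 gene of this list called higher, at 1.61 (adjusted p = 4.46e-05, limma), and stood at 0.88 with the trend removed. HRK, another BH3-only gene, had a log2 fold change of 0.59, and 0.50 with the trend removed. PMAIP1 encodes NOXA, a BH3-only protein that binds MCL1, and it had a log2 fold change of -0.92, or -0.64 with the trend removed. BNIP2, named for its binding to BCL2, was the 1 gene called lower, at -1.65. It stood at -0.47 with the trend removed and at -1.38 under the scaling among the others tried that brought it nearest to 0, short of the cutoff in both.

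Among all 7 effector and BH3-only genes that could be analysed, namely BAX, BAK1, BOK, BBC3, BMF, HRK and PMAIP1, 6 were higher in DU145-TFEB and PMAIP1 was lower. Of all listed genes, 47.6% were higher and 52.4% lower by the adjusted p alone, with a median of -0.36. The median of the 7 genes was 0.59. After the removal of the trend BMF and HRK had values above 0, and the other 5 had values below 0, with a median of -0.32. All listed genes then had 3288 values above 0 and 7249 below, with a median of -0.26. On the pro-survival side, BCL2L2, which encodes BCL-w and was singled out after its values were seen, had a log2 fold change of 0.34 beside the -0.76 of MCL1, and -0.40 with the trend removed. MCL1 and BCL2L2 thus went opposite ways with the scaling of the authors. BCL2L12, BCL2L13 and BNIP2 were counted on neither side here. Their log2 fold changes were 0.45, -0.23 and -1.65, or -0.46, -0.02 and -0.47 with the trend removed.

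All 4 genes of a short list of enzymes that act on MCL1 protein were lower, as were 52.4% of all listed genes by the adjusted p. USP9X, a deubiquitinase that stabilizes MCL1, had a log2 fold change of -2.03, and BTRC, an F-box protein that helps to degrade it, of -1.11. The other two were FBXW7 at -0.95 and HUWE1 at -0.49, both parts of ubiquitin ligases that target MCL1. The median was -1.03, against -0.36 over all listed genes. USP9X was the 1 gene called lower, as were 16.5% of all listed genes. The stabilizing and the degrading enzymes of the list thus moved the same way with the scaling of the authors. After the removal of the trend the 4 values were -0.98, -0.65, -0.07 and -0.20, and FBXW7 no longer passed the test (adjusted p = 0.767, limma).

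Of 27 genes of the mitophagy machinery, 22 were analysed, with a median log2 fold change of 0.31. By the adjusted p 12 were higher and 10 lower, beside 47.6% and 52.4% of all listed genes. Of these 22 genes, 3 were called lower and 0 higher, where 16.5% and 2.54% of all listed genes were. The third gene called, the deubiquitinase USP15, named after its values were seen, went from -1.59 to -0.18 with the trend removed. DNM1L, the GTPase that divides mitochondria, and MFN1, which fuses them, had the lowest values, -2.01 and -1.98, or -1.08 and -0.93 with the trend removed. The highest genes of the list were both receptors. FKBP8, an outer membrane receptor, was at 0.73 and SQSTM1, the ubiquitin-binding receptor p62, at 0.67, but with the trend removed they were at -0.37 and -0.13. Other receptors of ubiquitin-marked mitochondria, named after their values were seen, were lower, with TAX1BP1 at -1.43, CALCOCO2 at -1.14, OPTN at -0.98 and NBR1 at -0.56. With the trend removed these were at -0.37, -0.59, -0.73 and -0.18, and NBR1 no longer passed the test (adjusted p = 0.0556, limma). After the removal of the trend 3 genes of the list had values above 0 and 19 below, with a median of -0.18. All listed genes then split into 3288 above 0 and 7249 below, with a median of -0.26.

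Downstream of the mitochondrial pore, 17 of 23 genes of the caspase cascade were analysed, with a median of -0.29. By the adjusted p 6 were higher and 11 lower, beside 47.6% and 52.4% of all listed genes. At the cutoffs 3 were called lower and 0 called higher, beside the 16.5% and 2.54% of all listed genes. BIRC2 and BIRC3 encode the inhibitor of apoptosis proteins cIAP1 and cIAP2. BIRC2 went from a mean of 2435 ± 137 to 437 ± 151 normalized counts (SD, n = 3 each), a log2 fold change of -2.53, and BIRC3 had -2.40. They were at -1.62 and -1.13 with the trend removed. At the other end, ENDOG, a mitochondrial nuclease, was at 0.75 and HTRA2, a mitochondrial protease released with cytochrome c, at 0.52, and with the trend removed they turned to -0.44 and -0.29.

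BNIP3 and BNIP3L are known targets of hypoxia-inducible factor, so HIF1A and a list of its targets were also taken. Of 24 genes, 15 were analysed, 5 higher and 10 lower by the adjusted p, with a median of -0.57. Among all listed genes 47.6% were higher and 52.4% lower, with a median of -0.36. HIF1A had a log2 fold change of -1.82 and PDK1, a kinase that limits pyruvate use, of -1.55, or -0.80 and -0.57 with the trend removed. Without DU145-TFEB replicate 2, PDK1 stood at -1.43 and was no longer called, and under the scaling among the others tried that brought it nearest to 0 it stood at -1.08. VEGFA was at 0.53, and 0.30 with the trend removed, and ANGPTL4 was at 0.82, and -0.26 with the trend removed. BAX and BBC3 are known targets of p53, whose gene is mutated in DU145 cells, and 15 of 20 other p53 targets were analysed. Of these 6 were higher and 9 lower by the adjusted p, beside the same 47.6% and 52.4%, with a median of -0.59. ZMAT3 and RRM2B were lowest, at -1.91 and -1.87, or -1.05 and -0.86 with the trend removed. GADD45A and FDXR were highest, at 0.81 and 0.65, but at -0.05 and -0.40 with the trend removed. Of each of these 2 lists, 3 of the 15 genes were called lower and 0 higher, beside 16.5% and 2.54% of all listed genes. All 6 of these calls were lost with the trend removed, where the lowest of the values was the -1.05 of ZMAT3. After this step the HIF list had 2 values above 0 and 13 below, with a median of -0.57. The p53 list had 3 above and 12 below, with a median of -0.40. All listed genes then had 3288 above and 7249 below, with a median of -0.26.

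**Figure D5:**
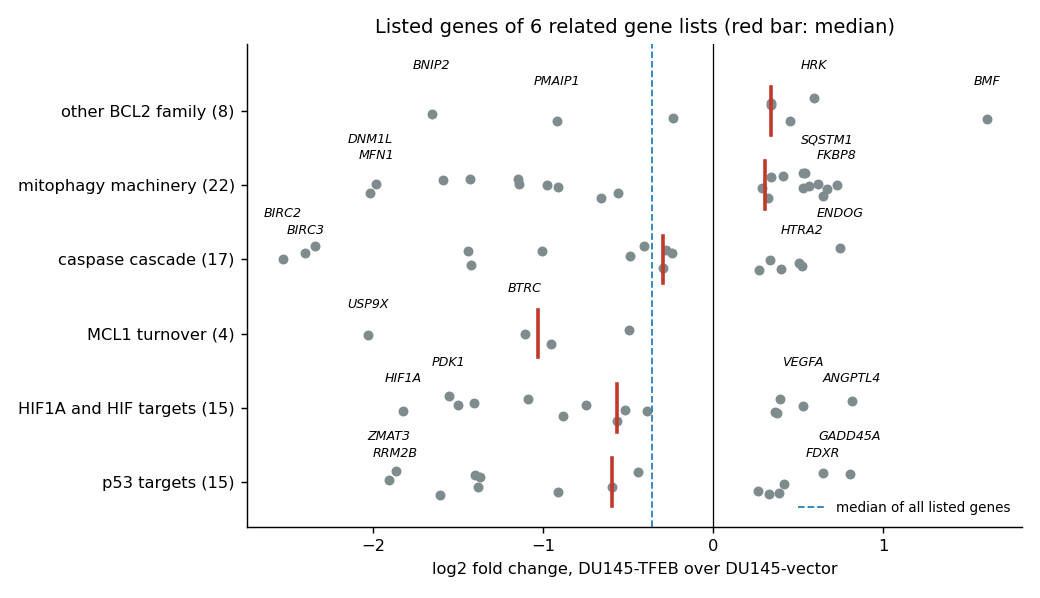
Log2 fold change of DU145-TFEB over DU145-vector (horizontal axis) for the listed genes of 6 related lists, with the number of genes in brackets. Grey points are genes, red bars are the medians of the lists, and the dashed line is the median of all listed genes at -0.36. Named genes are the lowest and highest of each list. The medians lie between -1.03 for the 4 MCL1 enzymes and 0.34 for the other BCL2 family genes.

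The genes whose levels across the 6 libraries lay nearest to those of BNIP3L were MED1, BARD1 and VPS35, at Euclidean distances of 0.11, 0.12 and 0.13 on the centred log2 scale. Their log2 fold changes were -1.75, -1.77 and -1.85, and 8617 genes with a mean of at least 100 normalized counts were compared. Nearest to BBC3 were NFKBIL1, RHPN1-AS1 and MAFG-DT, at distances of 0.10, 0.13 and 0.13 and with log2 fold changes of 0.75, 0.75 and 0.84. The likeness is a description over 6 libraries in 2 groups, and the points share those libraries.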

How the data were processed

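The data are bulk RNA-sequencing of 6 libraries, 3 of DU145-TFEB and 3 of DU145-vector cells. Per the labels and the methods of the study, mRNA libraries were made with the NEBNext Ultra kit, the processing notes name CASAVA 1.8, HISAT2 2.1.0, edgeR and GRCh38, and the methods name DESeq2 for the test. The counting program is not given in the sources used here. The authors deposited a normalized signal, which is the read count divided by a size factor per library (from 0.950 to 1.10). For DU145-vector replicate 3 the size factor was 1, so that the deposited values are counts. They also deposited group means, log2 fold changes, p-values and an adjusted p-value. Of these only the adjusted p-value was read, to count that all 10542 listed genes lie below 0.05. In each library 100.0% of the values were whole multiples of the value of 1 read, within 0.01 reads.

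All genes were tested with limma 3.58.1 (R 4.3.3) on log2(normalized count + 1) with a mean-variance trend, without a block and without a filter on low values. Adjusted p-values are Benjamini-Hochberg over the 10542 genes. As alternatives, the recovered reads were tested with edgeR 4.0.16 and with DESeq2 1.42.0. Other alternatives were the pseudocount, a filter of 10 reads, other scalings, the replicate block, each library left out and other cutoffs. The trend against GC content (GENCODE 29 transcripts, 10537 genes) and gene length was removed by loess with a span of 0.5. The use of the longest transcript for GC content was added after seeing the data. Scripts were tested on simulated counts. The genes and lists were chosen with earlier results of these data known. Named genes were all genes of the list with a row and, per related list, up to 2 of the highest and 2 of the lowest genes with groups that do not overlap. The highest were taken only where positive and the lowest only where negative. HUWE1, FBXW7, BOK, BCL2L2, BCL2L12, BCL2L13, USP15 and the other receptors were named after their values were seen. Protein sequences were not used here. Within each group, all pairs of libraries exceeded sampling noise (chi-square of counts at least 3.00 per gene), so none was counted as a repeat.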

Additional observations from a re-analysis of the deposited data

How the results depend on the processing

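The direction of MCL1, BNIP3 and BNIP3L was the same under all alternatives tried. That of BAX, BAK1 and BBC3 was the same except with the trend against GC content and length removed, where the log2 fold changes were -0.32, -0.56 and -0.31, with or without a replicate block, and -0.25, -0.55 and -0.39 with the GC content of the longest transcript, where BNIP3 was at -0.86 and BNIP3L at -0.94. BNIP3L was the only one of the 6 genes called lower, and with these 3 removals of the trend 0 were called lower. With a linear fold-change cutoff of 1.5, 2 were called higher and 2 lower. The share of all listed genes was not computed for it, so nothing is read from these counts. Without a cutoff 3 were called higher and 3 lower, beside 47.6% and 52.4% of all listed genes. Leaving out each library in turn gave 0 called higher and 1 called lower throughout.

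For the ratios to MCL1, quantile normalization gave differences of 1.85 for BAX, 1.35 for BAK1, 1.97 for BBC3, 0.44 for BNIP3 and -0.77 for BNIP3L. Removing the trend gave 0.14, -0.10, 0.14, -0.27 and -0.74, with or without the replicate block. The cause was not tested. With each library left out, the differences ran from 1.37 to 1.49 for BAX, 1.07 to 1.20 for BAK1, 1.43 to 1.58 for BBC3, 0.22 to 0.32 for BNIP3 and -1.16 to -0.86 for BNIP3L.

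Over the alternatives the adjusted p (limma, or edgeR or DESeq2 where these were used) ran from 4.07e-06 to 0.0973 for BBC3, which missed the threshold where the trend was removed with the GC content of all transcripts, with or without the replicate block, and had 0.0446 with the longest transcript. It ran from 4.24e-07 to 0.00191 for MCL1, 1.94e-13 to 0.0175 for BAX, 8.18e-07 to 0.0185 for BAK1, 1.86e-05 to 0.0166 for BNIP3 and 1.61e-32 to 1.87e-04 for BNIP3L.

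Deviations of same-numbered libraries from their group means correlated by -0.02, -0.25 and -0.14. Those of differently numbered libraries ran from -0.15 to 0.25. With 3 libraries per group, each centred on the group mean, these values cannot settle whether the replicate numbers pair the libraries. A replicate block changed no call of the 6 genes, and 268 genes were called higher and 1743 lower in the whole table, against 268 and 1741 without it. The number of listed genes called higher was also 114 with a pseudocount of 5, 89 with at least 10 reads in every library, 466 with size factors estimated again, 484 with DESeq2, 563 with quantile normalization, 156 with the trend removed and 163 with the longest transcript. The number called lower was 1105, 1078, 808, 390 and 422 under the last 5 of these. The table holds only genes selected for a difference between these groups, and 4 of the 10 genes have no value here. BBC3 rests on the fewest reads, 80 in its shallowest library.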
